A study of Mus musculus with 2 samples.

Results

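Mir99a, Mir99b, Mir100, Mir125a, Mir125b-1 and Mir125b-2 are the mouse genes of the miR-99/100 and miR-125 families. They were taken by name, after every gene identifier had been matched to a GENCODE M21 symbol, and make up 6 of the 2202 miRNA genes listed. Small RNA was sequenced from the hearts of 2 male B6CASTF1/J mice, first-generation hybrids of C57BL/6J and CAST animals, at an age of 25 days. Both libraries belong to 1 group with no treatment, mutation or control, so the only comparison available is that of replicate 1 with replicate 2. The age field gives days, while the free-text description writes months after the same number. The animals carry separate numbers but 1 shared donor identifier, and where the libraries do not come from separate animals the spread between them is technical.

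MicroRNAs are short RNAs cut from hairpin precursors, and bases 2 to 8 from the 5′ end, the seed, do most of the pairing with target mRNAs. The miR-125 family is the vertebrate counterpart of lin-4 of Caenorhabditis elegans, which together with let-7 times larval development there, and in Drosophila mir-100, let-7 and mir-125 are processed from 1 transcript. Vertebrates keep the same order in several paralogous clusters, each with a miR-99/100 gene, a let-7 gene and a miR-125 gene. The miR-99/100 family is known for repression of Mtor, the kinase that couples nutrients to growth, and the miR-125 family for roles in blood stem cells and in apoptosis.

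The 5p arms of the members fell into 2 groups by seed. They are shown from RefSeq (GRCm38.p6), 5′ to 3′, with the seed in capitals, because the results are given by seed group.
miR-99a-5p: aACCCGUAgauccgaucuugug
miR-100-5p: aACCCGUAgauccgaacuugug
miR-99b-5p: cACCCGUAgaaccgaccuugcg
miR-125a-5p: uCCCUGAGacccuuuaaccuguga
miR-125b-5p: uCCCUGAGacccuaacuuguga
The first 3 share the seed ACCCGUA. Counting from 1 at the 5′ end, miR-100-5p differs from miR-99a-5p only by U16A, so that their first 15 bases are identical, and miR-99b-5p differs from miR-99a-5p by A1C, U11A, U16C and U21C. These changes bring the GC content of miR-99b-5p to 63.6%, against 50% for the 5p arms of the other members. miR-125a-5p, of 24 bases, and miR-125b-5p, of 22, share the seed CCCUGAG and their first 13 bases.

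The mature miR-125b-5p stands in the hairpins of both Mir125b-1 and Mir125b-2, whereas the other 10 mature arms of the members each occur in 1 miRNA gene of the annotation. The arms that tell the pair apart are the 3p arms, shown here for that reason with bases 2 to 8 in capitals.
miR-125b-1-3p: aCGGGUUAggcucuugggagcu
miR-125b-2-3p: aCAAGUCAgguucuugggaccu
They share no run longer than 8 bases. The longest run common to the Mir125b-1 and Mir125b-2 hairpins was 24 bases. The longest run that Mir99a, Mir99b, Mir100 or Mir125a shared with any other miRNA hairpin was 16, 11, 16 and 14 bases. Reads that fit more than 1 locus are in no gene's count, and they came to 1.11 reads for each assigned read in replicate 1 and 1.03 in replicate 2. Reads of miR-125b-5p without bases of the flanking hairpin cannot be assigned to 1 of the pair, so the counts of Mir125b-1 and Mir125b-2 are lower bounds of what these genes gave. A count sums both arms of a hairpin, and the files do not separate them.

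All 6 members lie on the plus strand in 3 clusters. In mm10 the cluster on chromosome 17 holds Mir99b (17830188 to 17830257), Mirlet7e (17830352 to 17830444) and Mir125a (17830812 to 17830879) within 692 bases. They lie inside Spaca6, a gene for a sperm membrane protein. Mir99b and Mirlet7e were intronic in both Spaca6 transcripts that contain them, and Mir125a overlapped an exon of 1 of the 3 that contain it. On chromosome 9, Mir100 (41531425 to 41531504), Mirlet7a-2 (41536716 to 41536811) and Mir125b-1 (41581926 to 41582002) span 50578 bases in introns of the noncoding gene that M21 lists as 3110039I08Rik and RefSeq as Mir100hg. All 3 also lie in introns of the noncoding gene Gm49317. Mir125b-1 also overlaps an exon of Gm28119, a transcript annotated as sense intronic, and Mir100 overlaps an exon of Gm48742, a noncoding gene on the opposite strand. On chromosome 16, Mir99a (77598936 to 77599000), Mirlet7c-1 (77599657 to 77599750) and Mir125b-2 (77646273 to 77646343) span 47408 bases in introns of Mir99ahg, also a noncoding host gene. Mir99a and Mirlet7c-1 also lie within Gm11146, a protein-coding gene on the opposite strand, without overlap of its exons.

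**Figure D1:**
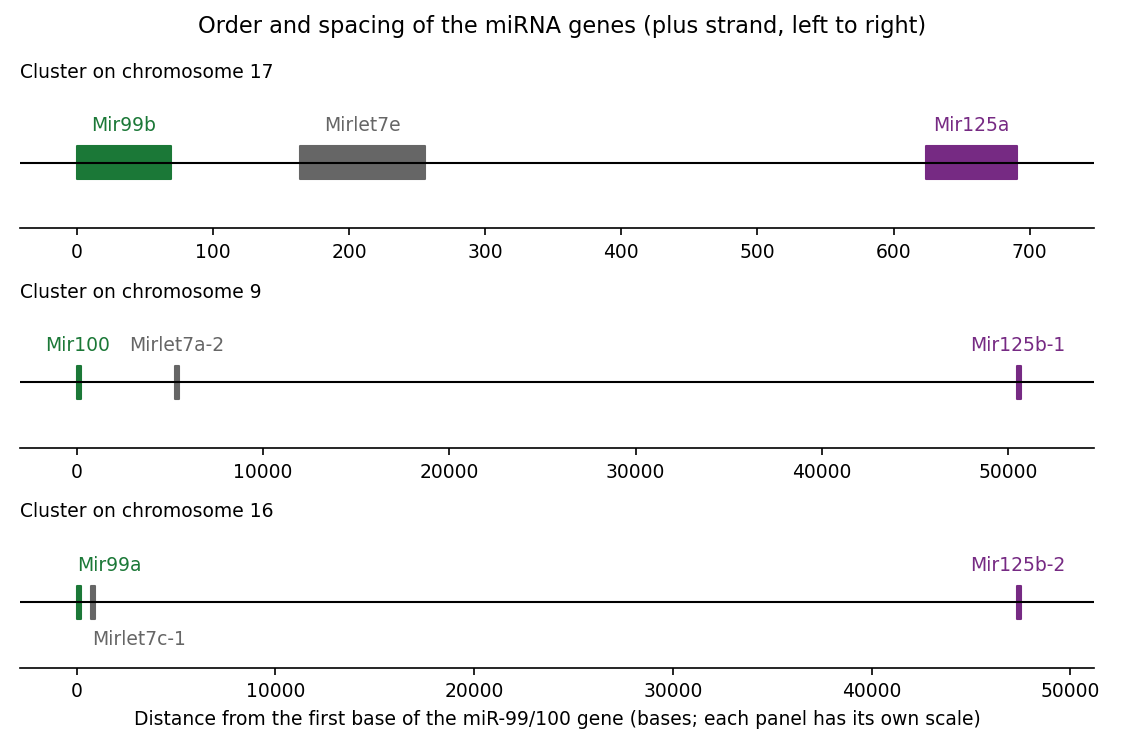
Positions of the miRNA genes in the clusters on chromosomes 17, 9 and 16, as distance in bases from the first base of the miR-99/100 gene, with a separate scale for each panel. All are on the plus strand in the order miR-99/100, let-7, miR-125, and the chromosome 17 cluster spans 692 bases, against 50578 and 47408 bases for the others.

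The files assigned 4930853 reads to miRNA genes in replicate 1 and 5229819 in replicate 2, which is 37.3% and 36.4% of all reads. Levels are counts on the strand of the gene, scaled to 1000000 assigned counts (CPM). Since RNA below 30 nucleotides was selected, a read was taken as 1 short RNA and counts were not divided by the length of the hairpin. In replicate 1 a single count is worth 0.203 CPM, and in replicate 2 it is worth 0.191 CPM. Detection meant at least 10 counts in each library, which 356 genes and all 6 members reached. No read was counted on the strand opposite to a member. As a check of the tissue, the 3 heart muscle genes Mir208a, Mir208b and Mir499 were all detected, with a summed level of 4486 CPM in replicate 1 and 6512 CPM in replicate 2. Mir499 by itself had 2933 CPM in replicate 1 and 2758 CPM in replicate 2, so not every gene of the list followed the sum. In whole tissue, fewer cells of a type and less RNA per cell cannot be told apart.

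Together the members held 7.25% of assigned counts in replicate 1, with an exact Clopper-Pearson 95% interval from 7.22 to 7.27%. In replicate 2 they held 5.90%, with an interval from 5.88 to 5.92%. The mean was 6.58 ± 0.948% (SD, n = 2). Intervals here and below cover counting error only. Assigned counts leave out reads placed at several loci, so shares and ranks hold among reads placed at 1 locus. Most of this came from the miR-99/100 genes, at 6.43% in replicate 1 and 4.61% in replicate 2, while the miR-125 genes held 0.812% and 1.29%. Reads of miR-125b-5p placed at several loci are missing from the miR-125 share alone. Their part in the difference between the seed groups was not tested. Mir99a alone supplied 60.6% of the members' counts in replicate 1 and 57.5% in replicate 2.

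Mir99a had the highest level of the members, with 43914 CPM in replicate 1 and 33960 CPM in replicate 2 (38937 ± 7038 CPM, SD, n = 2). It ranked 10th by mean level among all miRNA genes listed, 8th in replicate 1 and 10th in replicate 2. The rank counts no read placed at several loci, and how far those reads would move it was not tested. Both values of Mir99a lay above those of every other member.

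Mir100, whose 5p arm differs from that of Mir99a by 1 base, had 7825 CPM in replicate 1 and 6534 CPM in replicate 2 (7179 ± 912 CPM) and ranked 24th. Mir99b had 12594 CPM in replicate 1 and 5607 CPM in replicate 2 (9101 ± 4941 CPM), and of the 3 miR-99/100 genes its libraries lay farthest apart. Its rank was 15 in replicate 1 and 26 in replicate 2.

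Mir125a had 7754 CPM in replicate 1 and 12350 CPM in replicate 2 (10052 ± 3250 CPM) and ranked 18th. It was the only miR-125 gene whose 5p arm could be assigned to 1 locus. By mean level Mir125a, Mir99b and Mir100 followed Mir99a in that order, but their values overlapped, and the order among these 3 was not the same in the 2 hearts. In replicate 1 Mir99b stood above Mir100 and Mir125a, and in replicate 2 Mir125a stood above Mir100 and Mir99b.

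Mir125b-1 had 256 CPM (1262 counts) in replicate 1 and 324 CPM (1694 counts) in replicate 2, and Mir125b-2 had 114 CPM (560 counts) in replicate 1 and 271 CPM (1416 counts) in replicate 2. Their means were 290 ± 48.1 CPM and 192 ± 111 CPM (n = 2), with ranks of 101 and 121. Mir125b-1 was the higher of the pair in both hearts, although Mir125b-2 in replicate 2 exceeded Mir125b-1 in replicate 1. Both lay below every value of the other 4 members, with the reads of miR-125b-5p placed at several loci missing from both.

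**Figure D2:**
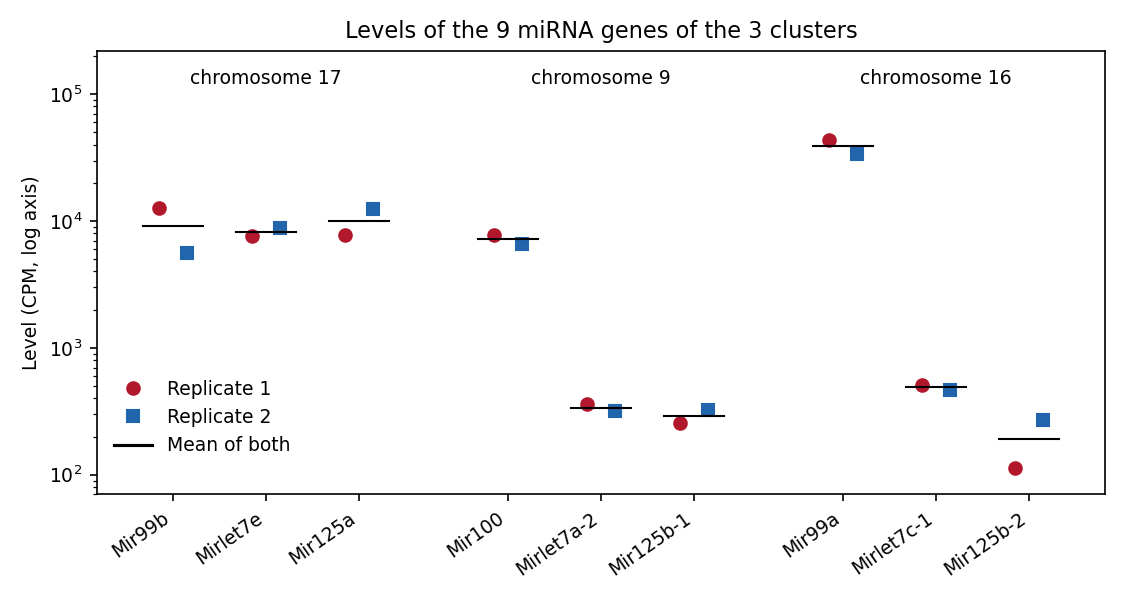
Level of each miRNA gene of the 3 clusters in replicate 1 (circles) and replicate 2 (squares), in CPM on a log axis, with the mean of both as a line. The genes on chromosome 17 lie between 5607 and 12594 CPM, while on chromosomes 9 and 16 the let-7 and miR-125 genes lie at 510 CPM or below. The let-7 and miR-125 genes on chromosomes 9 and 16 lack their reads placed at several loci.

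The let-7 genes of the same clusters differed in level in a like way. Mirlet7e had 7603 CPM in replicate 1 and 8883 CPM in replicate 2, close to both its neighbours Mir99b and Mir125a, whereas Mirlet7a-2 had 361 and 316 CPM and Mirlet7c-1 had 510 and 465 CPM in replicates 1 and 2. Mirlet7a-2 and Mirlet7c-1 each share a run of 23 bases with another let-7 gene, so part of their reads are placed at several loci as well. The whole of let-7c-5p stands in both Mirlet7c-1 and Mirlet7c-2, so its reads without flanking bases cannot be assigned to Mirlet7c-1. The range over the 3 genes of the chromosome 17 cluster was 0.73 log2 CPM in replicate 1 and 1.14 in replicate 2. It was 4.93 and 4.37 log2 CPM in the chromosome 9 cluster and 8.59 and 6.97 log2 CPM in the chromosome 16 cluster, in replicates 1 and 2. The ranges on chromosomes 9 and 16 carry the missing let-7 and miR-125b-5p reads. The part of those reads in the difference from chromosome 17 was not tested. Gm25927, which M21 annotates as a miRNA, lies antisense over Mirlet7e, and without strand Mirlet7e is listed at 0 counts.

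All 3 miR-99/100 genes were higher in replicate 1 and all 3 miR-125 genes were lower, so that the genes at the ends of each cluster went in opposite directions. For Mir125b-1 and Mir125b-2 this holds among reads placed at 1 locus, without the miR-125b-5p reads that fit both. The direction of those missing reads was not tested. Each gene was compared by an exact binomial test of its counts against the libraries' totals, two-sided, with Benjamini-Hochberg adjustment over the 356 detected genes at 0.05. All 6 members were called. The test covers counting error only, compares these libraries and not conditions, and called 63.5% of all detected genes, 30.6% as higher and 32.9% as lower in replicate 1. Run over the 222 genes with at least 100 counts in both libraries, which include all 6 members, the test called 180. A call by itself therefore says little about a member.

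Among the miR-99/100 genes, Mir99b was 2.25-fold higher in replicate 1 (exact 95% interval 2.22 to 2.28), Mir99a was 1.29-fold higher (1.29 to 1.30) and Mir100 was 1.20-fold higher (1.18 to 1.22). The p-values of Mir99a, Mir99b and Mir125a were too small to be represented, and that of Mir100 was 2.17e-129 after adjustment (exact binomial test).

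Among the miR-125 genes, Mir125a was 1.59-fold higher in replicate 2 (1.57 to 1.61), with a log2 ratio of replicate 1 over replicate 2 of -0.67. Mir125b-1 had a log2 ratio of -0.34 (adjusted p = 5.75e-10, exact binomial test) and Mir125b-2 one of -1.25 (adjusted p = 6.13e-74, exact binomial test), which is 2.38-fold higher in replicate 2 (2.16 to 2.63). The ratios of Mir125b-1 and Mir125b-2 leave out the miR-125b-5p reads placed at several loci. Mir125b-2 and Mir99b were the 2 members that differed by more than 2-fold, a difference that 17.7% of the detected genes showed.

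Against the spread over all detected genes these differences were not large. The SD of the log2 ratio over all detected genes was 0.86, and their median was -0.02. The median level of these genes was 60.3 CPM, against 8140 CPM for the members. The spread among genes at the members' own levels was not tested. The log2 ratios of Mir125b-2 (-1.25) and Mir99b (1.17) exceeded 1 SD, and those of the other 4 members, between -0.67 and 0.37, did not. With edgeR's exact test and the dispersion taken from both libraries as replicates (coefficient of variation 0.386), no member was called (0 of 6 also at an unadjusted p below 0.05), with an adjusted p of 1 for each of them. The smallest unadjusted p of a member was 0.126, and that test called 4 genes, or 1.12%, of all detected ones. Its dispersion comes from the same 2 libraries that it compares, so the differences under test are part of its error. It can hardly call a gene of ordinary difference, and nothing is concluded from the lack of a call.

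**Figure D3:**
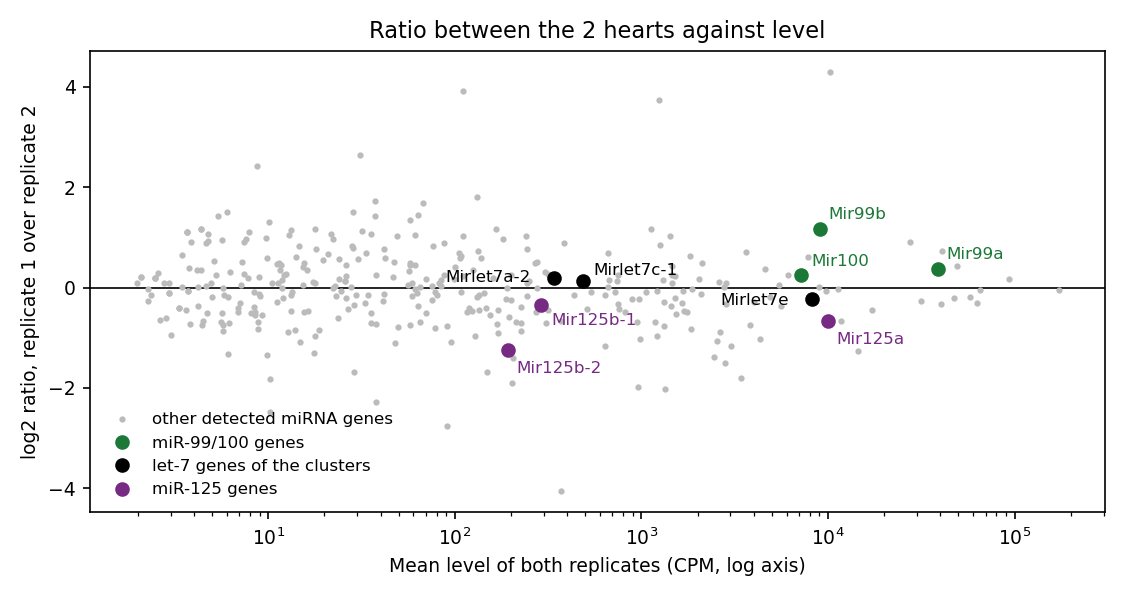
log2 ratio of replicate 1 over replicate 2 against mean level in CPM on a log axis, with 1 point per detected miRNA gene. The miR-99/100 genes lie above 0, between 0.26 and 1.17, and the miR-125 genes below 0, between -1.25 and -0.34, all inside the scatter of the other detected genes.

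Ratios of counts within a library do not depend on how the libraries are scaled. Whether counts of 2 different miRNAs stand in the ratio of their RNA amounts was not tested. In the chromosome 17 cluster, Mir99b had 1.62 counts for each count of Mir125a in replicate 1 (exact 95% interval 1.60 to 1.65) and 0.454 in replicate 2 (0.448 to 0.460). Of these neighbours, Mir99b thus had more counts in 1 heart and Mir125a in the other, and the ratio was 3.58 times higher in replicate 1 (3.51 to 3.65, from the log odds). Mirlet7e, which lies between them, had 0.980 counts for each count of Mir125a in replicate 1 and 0.719 in replicate 2.

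In the chromosome 9 cluster Mir100 had 30.6 counts for each count of Mir125b-1 in replicate 1 (28.9 to 32.4) and 20.2 in replicate 2 (19.2 to 21.2). In the chromosome 16 cluster Mir99a had 387 counts for each count of Mir125b-2 in replicate 1 (356 to 421) and 125.4 in replicate 2 (119 to 132). The size of these ratios carries the missing miR-125b-5p reads, and the part of those reads in the difference between replicates was not tested. In all 3 clusters the ratio was higher in replicate 1, by 3.58, 1.52 and 3.08 times for chromosomes 17, 9 and 16.

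The miR-125 gene was also low in replicate 1 against the let-7 gene of its cluster, with ratios of let-7 to miR-125 of 1.41 in replicate 1 and 0.975 in replicate 2 on chromosome 9 and of 4.49 and 1.72 on chromosome 16. On chromosomes 9 and 16 both the let-7 and the miR-125 gene lack reads placed at several loci. What those reads would do to the ratios was not tested. The miR-99/100 gene against the let-7 gene differed less on these chromosomes, at 21.7 and 20.7 counts of Mir100 for each count of Mirlet7a-2, with overlapping intervals, and at 86.2 and 73.1 counts of Mir99a for each count of Mirlet7c-1. On chromosome 17 Mir99b had 1.66 counts for each count of Mirlet7e in replicate 1 and 0.631 in replicate 2.

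**Figure D4:**
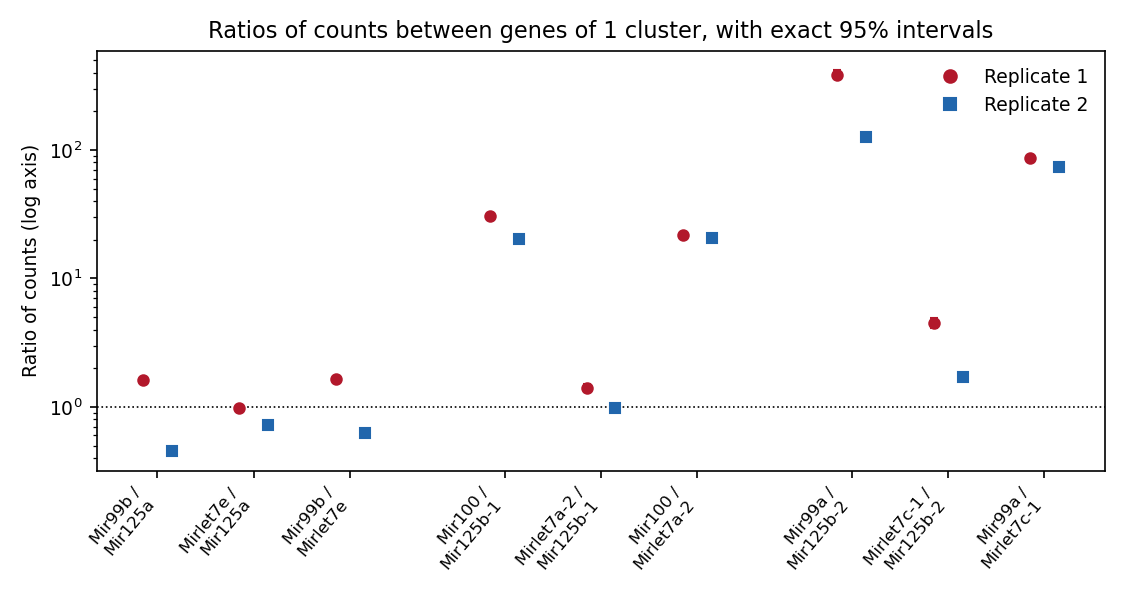
Ratio of counts between genes of the same cluster in replicate 1 (circles) and replicate 2 (squares), on a log axis with exact 95% intervals, which are mostly smaller than the points. The ratio of the miR-99/100 gene to the miR-125 gene is higher in replicate 1 in each cluster, and that of Mir99b to Mir125a lies on opposite sides of 1 (dotted) in the 2 hearts.

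The log2 ratios of neighbouring miRNA genes were also set beside each other. Over 135 pairs of detected genes on the same strand, with starts within 10 kb and a mean of at least 100 counts, the median absolute difference between the log2 ratios of a pair was 0.53 (quartiles 0.26 and 0.93). For Mir99b and Mir125a it was 1.84, and 4 of the 135 pairs (2.96%), this one included, reached that value. For Mir99b and Mirlet7e it was 1.39, and for Mirlet7e and Mir125a it was 0.45, below the median of all pairs. The pairs came from 99 genes, share genes and clusters, and were set up after the values of Mir99b and Mir125a were known, so the count is a description.

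Other genes with the same seeds were looked up among the 1738 mature arms of the RefSeq table. The seed of the miR-99/100 genes stood in no other arm. The seed CCCUGAG also stood in miR-351-5p, miR-6394 and miR-6367. Mir351, on the X chromosome, had 1472 CPM in replicate 1 and 1832 CPM in replicate 2 (1652 ± 255 CPM), with a log2 ratio of -0.32 (adjusted p = 1.03e-44, exact binomial test), the same direction as the miR-125 genes. Mir6394 and Mir6367 had 0 counts in both hearts, which allows a level of up to 0.608 CPM (3 counts) in replicate 1, and in replicate 2 one of up to 0.574 CPM.

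The nearest relatives of the miR-99/100 genes outside the clusters are Mir10a and Mir10b, which lie in the Hox clusters. Their 5p arms are shown because each shares a run of bases with part of the miR-99/100 arms but has a different seed.
miR-10a-5p: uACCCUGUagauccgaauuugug
miR-10b-5p: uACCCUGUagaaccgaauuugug
The longest run that miR-10a-5p shares with miR-100-5p is 11 bases, and that of miR-10b-5p with miR-99b-5p is 10 bases. With miR-99a-5p, miR-10a-5p shares 10 bases, but with miR-99b-5p only 5. For miR-10b-5p the run is 5 bases with both miR-99a-5p and miR-100-5p. Mir10a had 1615 CPM in replicate 1 and 896 CPM in replicate 2 (log2 ratio 0.85, adjusted p = 1.27e-231, exact binomial test). Mir10b had 521 CPM in replicate 1 and 556 CPM in replicate 2 (log2 ratio -0.09, adjusted p = 0.0284, exact binomial test), so the pair did not move together.

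Of the let-7 genes in the 3 clusters, Mirlet7a-2 (log2 ratio 0.19) and Mirlet7c-1 (0.13) were called higher and Mirlet7e (-0.22) lower in replicate 1. Of the 11 other let-7 genes listed, 9 were in the files, and 2 of these were called higher, 6 lower and 1 was not called. Over all detected genes 30.6% were called higher and 32.9% lower, by a test that covers counting error only. The median log2 ratio of the 9 other let-7 genes was -0.19, against -0.02 over all detected genes.

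By level over both libraries, the gene closest to Mir99a was Mir23a (50994 CPM in replicate 1 and 30701 CPM in replicate 2), followed by Mir23b. Mir93 was closest to both Mir99b and Mir100, Mir149 to Mir125a, Mir210 to Mir125b-1 and Mir501 to Mir125b-2, each by the distance of log2 CPM over 2 libraries, which rests on 2 points a gene. Those distances were between 0.09 (Mir210) and 0.44 (Mir93 from Mir99b) log2 CPM.

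Genes that mark other cell types also moved between the hearts. The summed level of the red blood cell genes Mir451a and Mir144, both detected, was 21812 CPM in replicate 1 and 1161 CPM in replicate 2. That of the fibroblast list (3 of 4 detected, Mir199a-1 at 0 counts) was 3416 CPM in replicate 1 and 9524 CPM in replicate 2. The endothelial list (1 of 2 detected) had 56393 and 69423 CPM, the smooth muscle list (2 of 2) 30025 and 36447 CPM, and the leukocyte list (4 of 5, Mir142b at 0 counts) 4788 and 5126 CPM in replicates 1 and 2. Of the 6 neuronal genes 0 were detected, with Mir124a-1, Mir124a-2, Mir124a-3 and Mir9-2 at 0 counts, and the liver gene Mir122 had 25.6 and 16.1 CPM. Mir124a, Mir9 and Mir199a are each listed as several genes, and reads that fit more than 1 locus are in no gene's count. Low or 0 counts of these genes therefore do not show that their RNAs were absent. The part of these cell types in the ratios of the members was not tested.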

How the data were processed

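MicroRNA reads from 2 heart libraries of 1 group were analysed. The authors deposited whole-number read counts per miRNA gene, unstranded and for each strand, on mm10 with GENCODE M21, per the text deposited with the files; aligner and counter: not given in the sources used here. CAST alleles were counted on the C57BL/6J build. Entries for unmapped, multiply placed, unassigned and ambiguous reads were left out of totals. Counts on the gene's strand were scaled to CPM. GENCODE M21 gave symbols for all 2202 identifiers, places, hosts and hairpins, and RefSeq mature sequences for 6 of 6 members.

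The labels give no contrast, so edgeR's quasi-likelihood test had nothing to test. All detected genes were compared between libraries by an exact binomial test (SciPy 1.17.1), with a pseudocount of 0.5 counts in log2 ratios; edgeR 4.0.16 and DESeq2 1.42.0 gave the alternatives. The steps were tested on simulated data. Named genes are the members, the let-7 genes of their clusters, Mir10a, Mir10b, and the 2 genes nearest to each member in log2 CPM; genes sharing a seed and the neighbour pairs were added after values were seen. Members and lists were chosen with earlier results of these data known. The binomial p-values hold counting error only, whether or not the libraries come from separate animals. Whether they do decides if the spread between libraries, which edgeR's dispersion uses, is more than technical.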

Additional observations from a re-analysis of the deposited data

Results flagged for a closer look

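Reads placed at several loci, which no gene's count includes, numbered 5497619 in replicate 1 and 5375745 in replicate 2, far above the limit of 3 counts. They are named here because miR-125b-5p, present in both Mir125b-1 and Mir125b-2, is the only mature arm of the members that occurs in more than 1 annotated gene. How many of these reads are miR-125b-5p was not tested. With 2 libraries in 1 group, a test for a sample lying apart from the others was not possible.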

How the results depend on the processing

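The directions of the 6 members' log2 ratios were kept under all 11 alternatives, and so were their calls under all but edgeR's exact test, which called none of them and 4 genes in all (19 at an unadjusted p below 0.05), against 226 by the binomial test. The kept directions say little, since the alternatives leave the members' ratios nearly unchanged or shift all 6 by 1 common amount. For Mir100, the member nearest to 0, the ratio stayed between 0.25 and 0.30. Among the alternatives other than edgeR's exact test, the count of called genes lay between 180 of 222 tested (at least 100 counts in both libraries) and 242 of 754 tested (at least 1 count in either). TMM scaling moved the median log2 ratio of detected genes to 0.02 and all other alternatives to between -0.08 and 0.01. With at least 100 counts in both libraries 43.9% of calls were higher in replicate 1, against 48.2%. The members' share was 9.05% with the unstranded column, 2.43% with all reads as the total and 7.94% without the most abundant gene. With the unstranded column the ratio of Mirlet7e to Mir125a was 0, because Mirlet7e is listed there at 0 counts. The level of Mir99a was 53595 CPM with that column and 14378 CPM with all reads as the total. Each ratio between libraries needs both, so none was computed without a replicate. No paired analysis was possible because there is 1 group. Reads of miR-125b-5p placed at several loci are missing from the counts of Mir125b-1 and Mir125b-2, and how many they are was not tested.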
